A study of Mus musculus with 6 samples.

Results

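The contractile genes described here are 48 genes of the sarcomere and of excitation-contraction coupling, taken from the 25166 genes of the deposited table by matching the gene symbol to a fixed list. They comprise 14 genes of the thick filament, 3 of the M band and titin, 9 of the thin filament, 12 of the Z disc and its attachments, 8 of calcium release and uptake, and 2 of the energy and oxygen store of the fiber. By isoform, 15 are fast, 8 slow and 3 developmental, and 22 carry no fiber type label. The RNA came from muscle stem cells (MuSCs), which lie between a myofiber and its basal lamina, sorted by FACS from 12-week-old male C57BL/6 mice at 100 to 200 cells per sample. The study's methods take cells negative for Sca1, CD45 and CD31 and positive for integrin α7 and CD34, for GFP or for a YFP reporter. The methods do not say which of these gates was used for which library. In the 3 libraries labelled Sirt6mKO, a constitutive Cre under the *Pax7* promoter removes the floxed exons 4 to 6 of *Sirt6*, a nuclear deacetylase. The 3 control (Ctrl) libraries are wild type in the sample labels and Cre-negative *Sirt6* fl/fl in the study's legend. *Pax7* is also active in the progenitors that build the fibers, so the deletion need not be limited to the sorted cells.

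A sarcomere is the repeating unit of the myofibril, in which myosin thick filaments slide along actin thin filaments anchored at the Z disc. Calcium released from the sarcoplasmic reticulum through the ryanodine receptor binds troponin C and moves tropomyosin off the myosin binding sites, and the SERCA pump takes the calcium back up. Many of these genes are switched on when myoblasts differentiate and fuse, and most are known as genes of the mature fiber rather than of the resting MuSC.

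The values are called signal here. Each is the number of reads on a gene, scaled by the size factor of its library and then rounded by the authors. A signal of 1 stands for about 1 read, since 1 read was worth 0.729 to 1.79 units of signal, and 1267027 to 3209958 reads lay behind the libraries. Of the 48 genes, 39 had a mean signal of at least 5 over the 6 libraries and were tested among 14227 genes. A gene was called when its p, adjusted by Benjamini-Hochberg over all tested genes, was 0.05 or less and the groups differed by at least 2-fold. *Sirt6* itself had a signal of 19, 20 and 13 in Sirt6mKO 1, 2 and 3 and of 18, 17 and 20 in Ctrl 1, 2 and 3. These gene-level values include exons outside the deletion and so do not check it. No label states that the samples came from separate mice, so the p-values measure the spread between these samples.

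The promoters of 4 genes called higher in Sirt6mKO are shown as examples. They are the genes with the smallest adjusted p in each structure, among called genes with a promoter window in use. They are *Actn2* of the Z disc, *Mybpc2* of the thick filament, *Casq1* of the calcium store and *Acta1* of the thin filament. The 250 bases before the start site are from RefSeq on GRCm38.p6 and run 5′ to 3′ on the strand of the gene. Capitals mark E-boxes (CANNTG), MEF2 sites, CArG boxes (bound by serum response factor) and the TATA box TATAAA, each searched on both strands. An E-box counted here could have any letters in the middle, so it need not be a form that MyoD-family factors bind. All 4 genes are on the minus strand, at chr13:12340733-12340982 for *Actn2*, chr7:44524670-44524919 for *Mybpc2*, chr1:172219896-172220145 for *Casq1* and chr8:123894776-123895025 for *Acta1*.
Actn2: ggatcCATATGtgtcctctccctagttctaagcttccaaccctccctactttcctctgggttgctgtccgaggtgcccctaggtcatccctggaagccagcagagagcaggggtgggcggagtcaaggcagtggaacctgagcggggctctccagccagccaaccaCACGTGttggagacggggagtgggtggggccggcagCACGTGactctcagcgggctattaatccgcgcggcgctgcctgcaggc
Mybpc2: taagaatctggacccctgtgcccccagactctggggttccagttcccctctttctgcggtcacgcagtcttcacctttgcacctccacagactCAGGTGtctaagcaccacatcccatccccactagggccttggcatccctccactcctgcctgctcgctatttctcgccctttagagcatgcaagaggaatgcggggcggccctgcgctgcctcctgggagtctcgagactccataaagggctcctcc
Casq1: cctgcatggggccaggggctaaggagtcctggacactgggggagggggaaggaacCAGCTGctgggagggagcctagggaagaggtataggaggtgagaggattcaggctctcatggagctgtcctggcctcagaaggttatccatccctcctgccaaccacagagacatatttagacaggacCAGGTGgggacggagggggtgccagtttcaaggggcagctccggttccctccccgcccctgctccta
Acta1: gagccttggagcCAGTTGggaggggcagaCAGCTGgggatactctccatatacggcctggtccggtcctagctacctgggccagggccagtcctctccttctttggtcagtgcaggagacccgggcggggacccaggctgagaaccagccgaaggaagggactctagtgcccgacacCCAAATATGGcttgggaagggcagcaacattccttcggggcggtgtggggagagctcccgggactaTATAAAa
Of these 4 windows, *Actn2* held 3 E-boxes, *Mybpc2* 1, *Casq1* 2 and *Acta1* 2, and the *Acta1* window alone also held 1 CArG box and 1 TATA box. Windows of the chromosome that holds *Myot* and *Myoz3* were left out. Of the 48 genes, 34 had a promoter window in use. An E-box was found in 27 of these 34 windows (79.4%) and in 59.2% of the 13529 windows in use for genes of the table. A MEF2 site was found in 6 (17.6%) against 1.83%, a CArG box in 6 (17.6%) against 1.12%, a TATA box in 9 (26.5%) against 7.55%, and the M-CAT motif CATTCC in 9 (26.5%) against 11.3%. A MEF2 site and a TATAAA can share letters in an A and T rich stretch. The genes with a MEF2 site were *Myh1*, *Myh4*, *Myh8*, *Myoz2*, *Pvalb* and *Ttn*, and those with a CArG box were *Acta1*, *Actc1*, *Ldb3*, *Myh4*, *Myl3* and *Myom1*. Of the genes in both lists, only *Acta1* was called higher in Sirt6mKO. All these motifs are letter matches in a short window and do not show binding, and their relation to the change in Sirt6mKO was not tested.

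The first question was which contractile genes were present in control MuSCs at all. Per kb of exon, desmin (*Des*), the intermediate filament that ties Z discs together, stood highest in the controls, at 410 units of signal per kb. It was followed by *Mybpc1*, the slow myosin binding protein C, at 142, *Actn3*, the fast α-actinin, at 137, *Atp2a1*, the fast SERCA pump, at 94.0, and *Mylk2*, the kinase of the myosin regulatory light chain, at 91.2. *Acta1* came next at 74.2. Of these genes, *Des*, *Mybpc1* and *Atp2a1* share 220, 252 and 763 bases of exon with a gene on the other strand. It is not stated whether the authors counted by strand. The *Des* signal was 1516, 1794 and 1309 in Ctrl 1, 2 and 3, and that of *Mybpc1* was 501, 682 and 746. *Mylk2* was the most uneven of these, with 541, 182 and 84 in the controls. At the other end, 9 genes did not reach the minimum signal, namely *Myh7*, *Myh8*, *Myl2*, *Myl3*, *Mybph*, *Tnnc1*, *Myoz2*, *Xirp1* and *Smpx*. They include the slow and developmental myosins *Myh7* and *Myh8*, the slow light chains *Myl2* and *Myl3*, and the slow troponin C gene *Tnnc1*. Their signal was between 0 and 7 in every library.

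Against this background, 9 of the 39 tested contractile genes were higher in Sirt6mKO and 0 were lower (limma-trend, Benjamini-Hochberg, with SE for the standard error of a log2 fold change from here on). The higher genes were *Trdn*, *Myoz1*, *Mybpc2*, *Myot*, *Mylpf*, *Actn2*, *Acta1*, *Cmya5* and *Casq1*. Over all 14227 tested genes, 1.57% were called higher and 1.02% lower. Without a minimum fold change, 14 contractile genes were higher and 0 lower, against 2.64% higher and 1.88% lower over all genes. At an unadjusted p under 0.05, 27 contractile genes were higher and 0 lower, against 9.97 and 8.14% of all genes. The median log2 fold change was 1.10 for the 39 genes and 0.00 for all genes, and it was above 0 for 37 of the 39, against 50.4% of all genes.

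**Figure D1:**
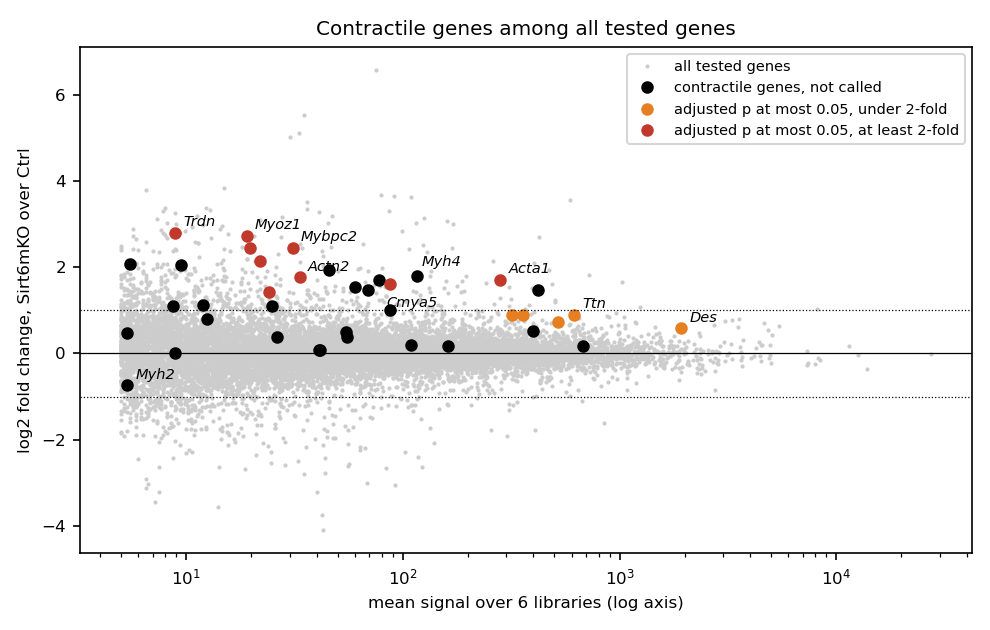
Log2 fold change of Sirt6mKO over Ctrl (y axis) against the mean signal over 6 libraries (x axis, log axis) for all 14227 tested genes (grey points) and the 39 tested contractile genes (large points, coloured by the outcome of the limma-trend test). All but 2 of the contractile genes lie above 0, and the 9 called genes (red) lie between 1.43 and 2.80.

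Since a gene that is nearly silent in the controls can pass the filter only where Sirt6mKO is high, the 39 genes were divided by their control mean. The 6 genes *Myom2*, *Myot*, *Myoz1*, *Myoz3*, *Tcap* and *Trdn* had a control mean under 5, and 3 of these 6 were called higher, beside 13.5% of the 393 such genes of the table. Of the other 33, 6 were called higher and 31 had a log2 fold change above 0, with a median of 0.90. Among the 13834 genes of the table with a control mean of at least 5, 1.23% were called higher and the median was -0.01.

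The count depended on single libraries. Without Sirt6mKO 1 it was 2, without Sirt6mKO 2 also 2, and in both cases the genes were *Actn2* and *Cmya5*. Without Sirt6mKO 3 it was 20, and without Ctrl 2 it was 4. Over all genes, 0.71% were called higher without Sirt6mKO 1, 0.682% without Sirt6mKO 2, 1.17% without Sirt6mKO 3 and 1.12% without Ctrl 2. Sirt6mKO 3 stood apart from the other two mutant libraries on these genes, as the values by library show.

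**Figure D2:**
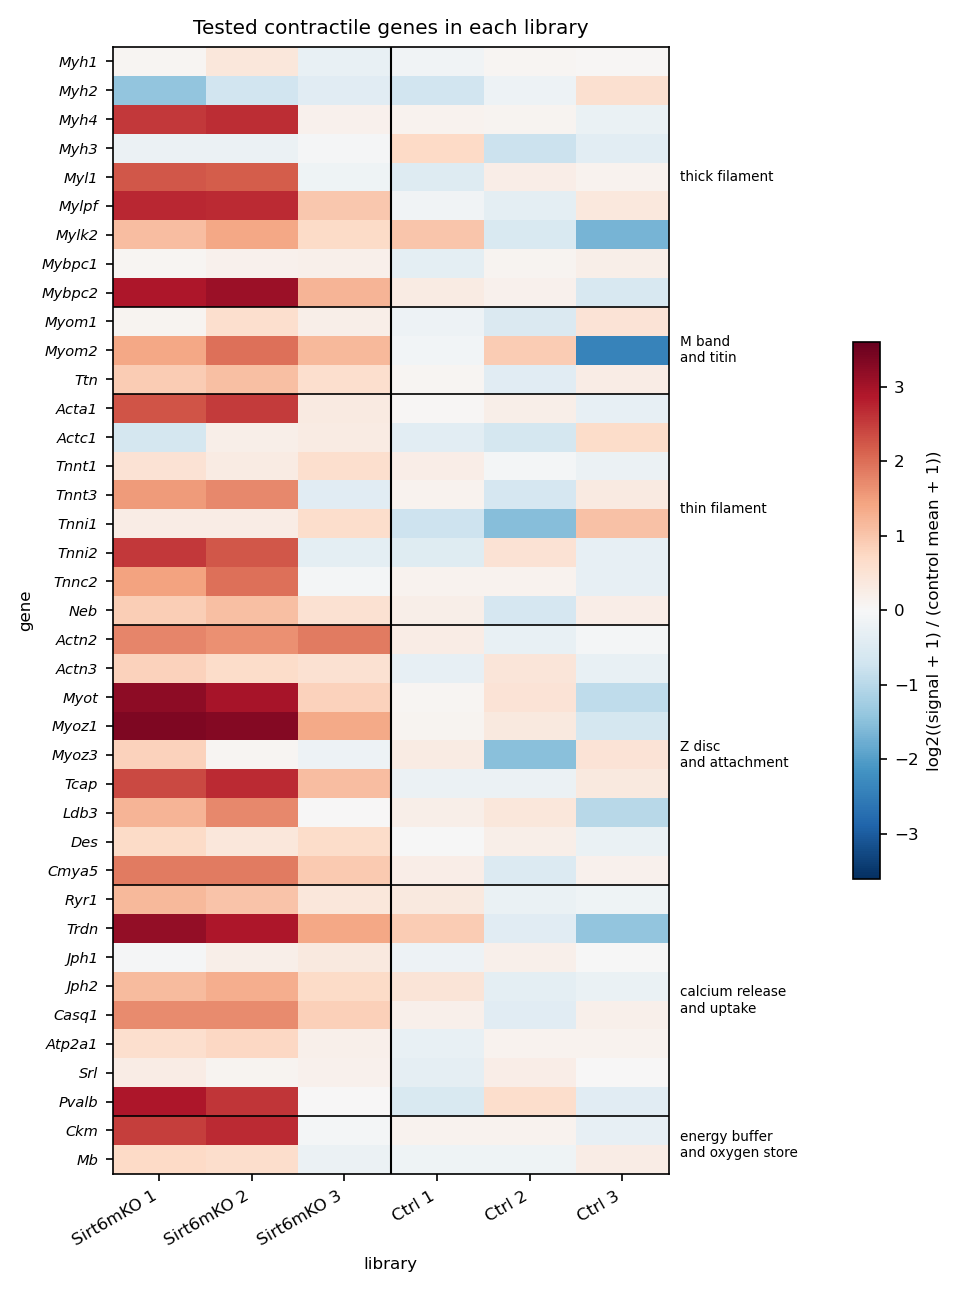
Heat map of the 39 tested contractile genes (rows, grouped by structure) in the 6 libraries (columns), where colour gives log2((signal + 1) / (control mean + 1)), red above and blue below the control mean. Sirt6mKO 1 and 2 are red for most genes, whereas Sirt6mKO 3 is pale for many of the same genes and red for *Actn2*.

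In the thick filament, *Mybpc2*, the fast myosin binding protein C that links myosin to the filament backbone, had a signal of 67, 75 and 20 in Sirt6mKO 1, 2 and 3 and of 10, 9 and 5 in Ctrl 1, 2 and 3. All 3 mutant libraries were above every control, with Sirt6mKO 3 far under the other two. Its means were 54.0 ± 29.7 and 8.0 ± 2.65 (SD, n = 3 per group), and the log2 fold change was 2.45 (SE 0.45, limma-trend adjusted p = 0.0088; ENSMUSG00000038670, chromosome 7, 44501699 to 44524656). *Mylpf*, the fast regulatory light chain, had 49, 48 and 14 in Sirt6mKO against 6, 5 and 9 in Ctrl. The groups again did not overlap, and the log2 fold change was 2.15 (SE 0.45, limma-trend adjusted p = 0.018; ENSMUSG00000030672, chromosome 7, 127208890 to 127214298). *Mybpc2* was no longer called without Sirt6mKO 1 or without Sirt6mKO 2 (limma-trend adjusted p = 0.083 and 0.077), nor was *Mylpf* (0.14 and 0.13), which also lost its call without Ctrl 2 (0.071).

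*Myh4* encodes the fastest myosin heavy chain, that of type 2B fibers. It had a signal of 252, 274 and 47 in Sirt6mKO 1, 2 and 3 and of 46, 45 and 36 in the controls. The mean of Sirt6mKO 1 and 2 was 6.21 times the control mean, whereas Sirt6mKO 3 exceeded the highest control by a single unit, which is less than the spread of the controls. The log2 fold change was 1.79 (SE 0.49) and did not pass (limma-trend adjusted p = 0.061), but it did without Sirt6mKO 3, at 2.61 (limma-trend adjusted p = 3e-05). The other myosin heavy chain genes stayed within or near the range of the controls. *Myh1*, the type 2X chain, had 42, 53 and 33 in Sirt6mKO and 36, 42 and 41 in Ctrl. *Myh2*, the type 2A chain, had 2, 4 and 5 against 4, 6 and 11, and the embryonic *Myh3* had 8, 8 and 9 against 16, 5 and 7. None of these 3 was called, and their groups overlapped.

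Expressed per kb, *Myh4* therefore made up 82.9 and 80.7% of the signal of the 6 sarcomeric myosin heavy chain genes in Sirt6mKO 1 and 2. It made up 49.6% in Sirt6mKO 3 and 45.4, 45.5 and 38.5% in the controls. Their summed level was 50.5 and 56.4 units of signal per kb in Sirt6mKO 1 and 2, 15.7 in Sirt6mKO 3, and 15.5 to 16.8 in the controls. The authors left out reads that fell on more than 1 gene or region, so stretches that these near-identical paralogs share may be under-counted.

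**Figure D3:**
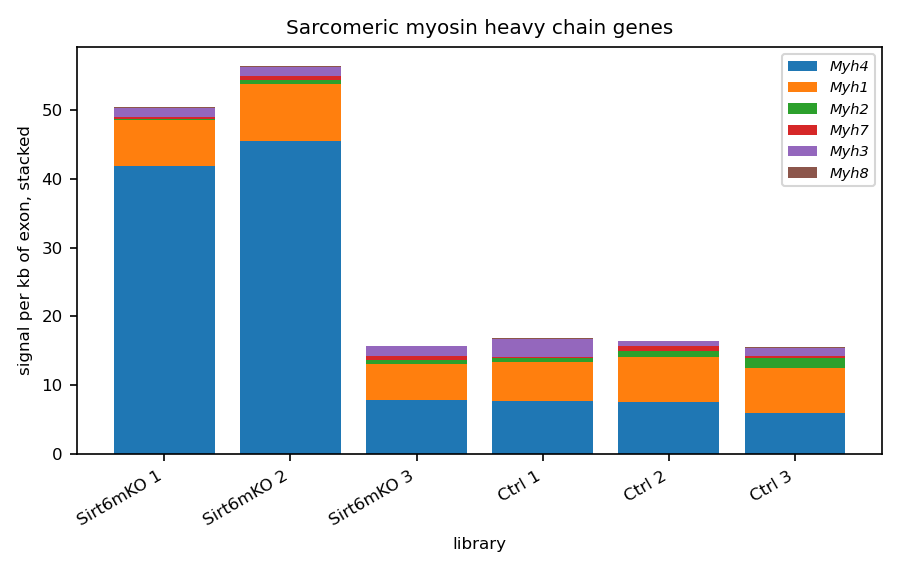
Stacked bars of the signal per kb of exon (y axis, from 0) of 6 sarcomeric myosin heavy chain genes in each of the 6 libraries (x axis). The *Myh4* segment is tall in Sirt6mKO 1 and 2, and the stack of Sirt6mKO 3, at 15.7, lies within the 15.5 to 16.8 of the controls.

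The fast essential light chain *Myl1* followed *Myh4*, with 150, 145 and 28 in Sirt6mKO and 22, 37 and 34 in Ctrl. Sirt6mKO 1 and 2 were above all controls and Sirt6mKO 3 lay among them, and the gene was not called (log2 fold change 1.46, limma-trend adjusted p = 0.13). *Mylk2* had 581, 708 and 438 in Sirt6mKO against the scattered 541, 182 and 84 of the controls, and was not called either (1.48, limma-trend adjusted p = 0.10). By contrast *Mybpc1*, the slow counterpart of *Mybpc2*, was level across the libraries, at 680, 714 and 737 in Sirt6mKO and 501, 682 and 746 in Ctrl. Its log2 fold change was 0.16 (SE 0.14, limma-trend adjusted p = 0.60).

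Among the M band genes and titin, *Ttn*, the giant spring that spans from Z disc to M band, had a signal of 819, 917 and 657 in Sirt6mKO and 451, 321 and 518 in Ctrl. All mutant libraries were above all controls, and the log2 fold change was 0.90 (SE 0.17, limma-trend adjusted p = 0.01), so it passed the p but stayed under 2-fold. *Myom2*, a myomesin of the M band, had 13, 20 and 11 against 4, 9 and 0. The groups did not overlap, but the spread of the controls left it without a call (log2 fold change 2.05, limma-trend adjusted p = 0.13). *Myom1* had 53, 75 and 57 against 43, 34 and 70 and its groups overlapped.

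The thin filament gave 1 call. *Acta1*, skeletal muscle α-actin, had a signal of 548, 656 and 143 in Sirt6mKO 1, 2 and 3 and of 118, 131 and 93 in the controls. Sirt6mKO 3 was just above the highest control, and the mean of the other two was 5.28 times the control mean. The means were 449.0 ± 270 and 114 ± 19.3 (SD, n = 3 per group), with a log2 fold change of 1.71 (SE 0.42, limma-trend adjusted p = 0.035; ENSMUSG00000031972, chromosome 8, 123891769 to 123894751). It was called in 1 of 6 fits on 5 libraries, the one without Sirt6mKO 3. In the other 5 the limma-trend adjusted p was 0.074 to 0.21, and with robust empirical Bayes on all libraries it was 0.30. *Actc1*, the cardiac α-actin that is also made in developing muscle, had 26, 48 and 51 against 31, 26 and 66 and did not separate the groups. The share of *Acta1* in both α-actin genes, per kb, was 95.7, 93.5 and 74.7% in Sirt6mKO and 80.0, 84.1 and 59.7% in Ctrl.

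Troponins are the calcium switch of the thin filament, and each subunit has a fast and a slow gene. The 3 fast genes *Tnnt3*, *Tnni2* and *Tnnc2* had the split of *Myh4*. *Tnnt3* had 154, 175 and 39 in Sirt6mKO against 57, 34 and 66 in Ctrl, *Tnni2* had 149, 119 and 19 against 18, 36 and 20, and *Tnnc2* had 19, 28 and 6 against 7, 7 and 5. In each, Sirt6mKO 1 and 2 were above all controls and Sirt6mKO 3 was not. None of the 3 was called (limma-trend adjusted p = 0.18 to 0.26). *Tnnc2* shares 592 of its 800 exon bases with *Ube2c* on the other strand, and whether strand was used in counting is not stated. Of the slow genes, *Tnnt1* had 66, 56 and 70 against 54, 43 and 39, and *Tnni1* had 13, 13 and 17 against 6, 3 and 23, again without a call. *Tnnc1* was close to the detection limit, with 10 reads in Sirt6mKO and 1 read in Ctrl, a ratio of 7.62 with an exact 95% counting interval of 1.08 to 331. *Neb*, nebulin, the ruler along the thin filament, had 475, 544 and 373 against 298, 168 and 301. Its groups did not overlap and its log2 fold change was 0.89 (SE 0.21, limma-trend adjusted p = 0.031), under 2-fold.

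The Z disc held 4 of the 9 calls. *Actn2*, an α-actinin that crosslinks actin at the Z disc, had a signal of 52, 48 and 56 in Sirt6mKO and of 18, 12 and 14 in Ctrl. It was the 1 called gene in which Sirt6mKO 3 was the highest library, and its groups were far apart. The means were 52.0 ± 4.0 and 14.7 ± 3.06 (SD, n = 3 per group), with a log2 fold change of 1.77 (SE 0.25, limma-trend adjusted p = 0.0017; ENSMUSG00000052374, chromosome 13, 12269426 to 12340760). *Cmya5*, myospryn, which binds desmin and α-actinin near the costamere, had 157, 157 and 83 against 50, 30 and 47. Every mutant library was again above every control, at a log2 fold change of 1.60 (SE 0.26, limma-trend adjusted p = 0.0048; ENSMUSG00000047419, chromosome 13, 93040713 to 93144724). *Actn2* and *Cmya5* were called in all 6 fits with 1 library left out. *Cmya5* shares 2451 bases of exon with *A630019I02Rik* on the other strand, and it is not stated whether the authors counted by strand.

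*Myoz1*, calsarcin of fast fibers, which anchors calcineurin at the Z disc, had a signal of 47, 45 and 11 in Sirt6mKO and of 4, 5 and 2 in Ctrl. *Myot*, myotilin, which crosslinks actin, had 52, 43 and 9 against 5, 7 and 2. In both genes Sirt6mKO 1 and 2 were several times Sirt6mKO 3, which was itself above all controls. The log2 fold change was 2.73 for *Myoz1* (SE 0.53, limma-trend adjusted p = 0.011; ENSMUSG00000068697, chromosome 14, 20649107 to 20656540) and 2.45 for *Myot* (SE 0.59, limma-trend adjusted p = 0.034; ENSMUSG00000024471). *Myoz1* lost its call without Sirt6mKO 1 or 2 (limma-trend adjusted p = 0.10 and 0.093), and *Myot* was called in only 1 of the 6 fits, without Sirt6mKO 3. With Sirt6mKO 1, Sirt6mKO 2, Ctrl 1, Ctrl 2 or Ctrl 3 left out, the limma-trend adjusted p of *Myot* was 0.22, 0.19, 0.059, 0.057 and 0.099.

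Of the remaining Z disc genes, *Tcap*, telethonin, which caps titin, had 11, 14 and 4 in Sirt6mKO and 1, 1 and 2 in Ctrl. The groups did not overlap, but the gene had 3 reads in the 3 controls together, against 36 in Sirt6mKO, a ratio of 9.14 with an exact 95% counting interval of 2.89 to 46.4. Its log2 fold change of 2.08 did not pass (limma-trend adjusted p = 0.059). *Actn3* had 712, 628 and 580 against 326, 534 and 330, with separate groups and a log2 fold change of 0.72 (SE 0.17, limma-trend adjusted p = 0.033). *Des* had 2483, 2026 and 2433 against 1516, 1794 and 1309, also separate, at 0.59 (SE 0.13, limma-trend adjusted p = 0.026). Both passed the p and stayed under 2-fold. *Ldb3*, which holds α-actinin to other Z disc proteins, had 13, 19 and 5 against 6, 7 and 2, so that Sirt6mKO 3 lay among the controls, and *Myoz3*, the third calsarcin gene, had 9, 5 and 4 against 6, 1 and 7. *Smpx*, a small protein of the costamere, had 12 reads in Sirt6mKO and 0 in every control, and was at least 3.05-fold higher when set against a floor of 3 reads over the control group, while the exact 95% counting interval of the ratio starts at 2.12.

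**Figure D4:**
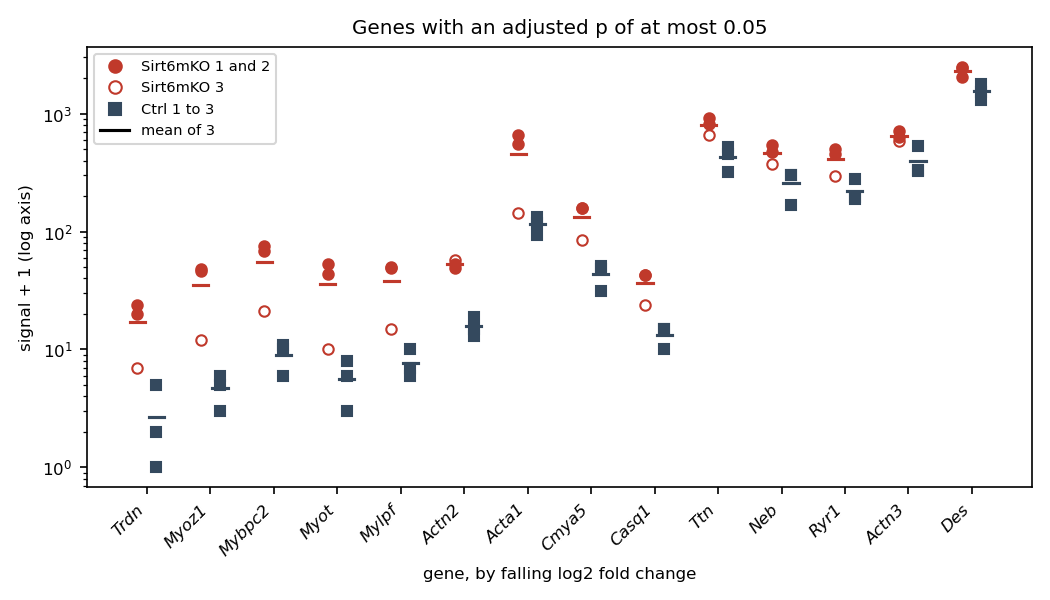
Signal + 1 (y axis, log axis) of the 14 contractile genes that passed 0.05 in limma-trend after adjustment (x axis), in Sirt6mKO 1 and 2 (filled circles), Sirt6mKO 3 (open circles) and Ctrl 1 to 3 (squares), with a bar at each group mean. From left to right the log2 fold change falls from 2.80 (*Trdn*) to 0.59 (*Des*), and the open circle is well below the filled ones in *Trdn*, *Myoz1*, *Mybpc2*, *Myot*, *Mylpf* and *Acta1*.

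In calcium handling, *Casq1*, the calcium-binding calsequestrin of the reticulum, had a signal of 42, 42 and 23 in Sirt6mKO and of 14, 9 and 14 in Ctrl. The groups did not overlap and the log2 fold change was 1.43 (SE 0.32, limma-trend adjusted p = 0.024; ENSMUSG00000007122, chromosome 1, 172209894 to 172219868). *Trdn*, triadin, which ties calsequestrin to the ryanodine receptor, had 23, 19 and 6 against 4, 1 and 0. All mutant libraries were above all controls, but only 4 reads lay behind the controls and 59 behind Sirt6mKO, a ratio of 11.2 with an exact 95% counting interval of 4.16 to 42.6. The log2 fold change was 2.80 (SE 0.67, limma-trend adjusted p = 0.033; ENSMUSG00000019787, chromosome 10, 33080554 to 33476709), and it was called in 2 of 6 fits with 1 library left out. Without Sirt6mKO 1, Sirt6mKO 2, Ctrl 2 or Ctrl 3, the limma-trend adjusted p of *Trdn* was 0.20, 0.17, 0.089 and 0.076. For *Casq1* it was 0.16 without Sirt6mKO 1, 0.14 without Sirt6mKO 2 and 0.081 without Ctrl 2.

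The release channel itself, *Ryr1*, had 499, 451 and 294 in Sirt6mKO and 280, 187 and 197 in Ctrl. Sirt6mKO 3 was above the highest control by a margin smaller than the spread of the controls, and the log2 fold change was 0.89 (SE 0.20, limma-trend adjusted p = 0.024), under 2-fold. *Jph2*, a junctophilin that bridges the reticulum and the T-tubule, had 36, 40 and 26 against 22, 12 and 13. Its groups did not overlap, and the log2 fold change of 1.10 did not pass (limma-trend adjusted p = 0.064). The pump gene *Atp2a1* had 493, 553 and 370 against 269, 354 and 357, a separation that rested on a narrow margin of Sirt6mKO 3 (log2 fold change 0.52, limma-trend adjusted p = 0.094). *Jph1* and *Srl*, a further junctophilin and the luminal protein sarcalumenin, had overlapping groups and log2 fold changes of 0.18 and 0.19. *Pvalb*, the calcium buffer of fast fibers, had 119, 95 and 15 against 10, 24 and 11, where Sirt6mKO 3 lay among the controls.

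*Ckm*, the muscle creatine kinase that refills ATP, had 165, 186 and 27 in Sirt6mKO and 31, 31 and 23 in Ctrl. Sirt6mKO 3 was within the controls, and the gene was not called (log2 fold change 1.71, limma-trend adjusted p = 0.10). Myoglobin (*Mb*), the oxygen store, had 37, 35 and 19 against 20, 20 and 27 and a log2 fold change of 0.38.

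The difference between the mutant libraries was therefore described across all tested contractile genes, as a pattern chosen after the values were seen. In 20 of the 39 genes all 3 Sirt6mKO libraries were above all 3 controls, beside 11.1% of all genes, and 0 were below, beside 10.1%. In 9 genes Sirt6mKO 1 and 2 were above all controls and Sirt6mKO 3 was not, beside 4.72%. In 0 genes were Sirt6mKO 1 and 3 alone above the controls, and in 1, *Jph1*, Sirt6mKO 2 and 3 alone, beside 4.08 and 4.14%. In 15 genes Sirt6mKO 1 and 2 were above all controls while Sirt6mKO 3 was at most 0.5 times each of them, beside 0.668% of all genes. These were *Myh4*, *Myl1*, *Mylpf*, *Mybpc2*, *Acta1*, *Tnnt3*, *Tnni2*, *Tnnc2*, *Myot*, *Myoz1*, *Tcap*, *Ldb3*, *Trdn*, *Pvalb* and *Ckm*, and they hold 6 of the 9 calls.

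In these 15 genes the mean of Sirt6mKO 1 and 2 was 3.14 to 12.6 times the control mean, with a median of 6.21. Sirt6mKO 3 was 0.745 to 3.6 times the control mean, with a median of 1.11, and it was above all controls in 8 of the 15. The 2 high libraries were close to each other, with a ratio of Sirt6mKO 1 to 2 of 0.679 to 1.25. Of the 15 fast isoform genes, 9 had this pattern, against 0 of the 3 slow and 0 of the 2 developmental genes that were tested. Among the untested slow genes, *Tnnc1* had it as well, at a signal of 5, 2 and 1 against 0, 1 and 0. A further 12 genes had all mutant libraries above all controls and Sirt6mKO 3 above 0.5 times Sirt6mKO 1 or 2. They were *Myom2*, *Ttn*, *Tnnt1*, *Neb*, *Actn2*, *Actn3*, *Des*, *Cmya5*, *Ryr1*, *Jph2*, *Casq1* and *Atp2a1*, with 3 calls. In them Sirt6mKO 1 and 2 were 1.35 to 3.81 times the control mean (median 2.08) and Sirt6mKO 3 1.13 to 3.82 times (median 1.56).

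**Figure D5:**
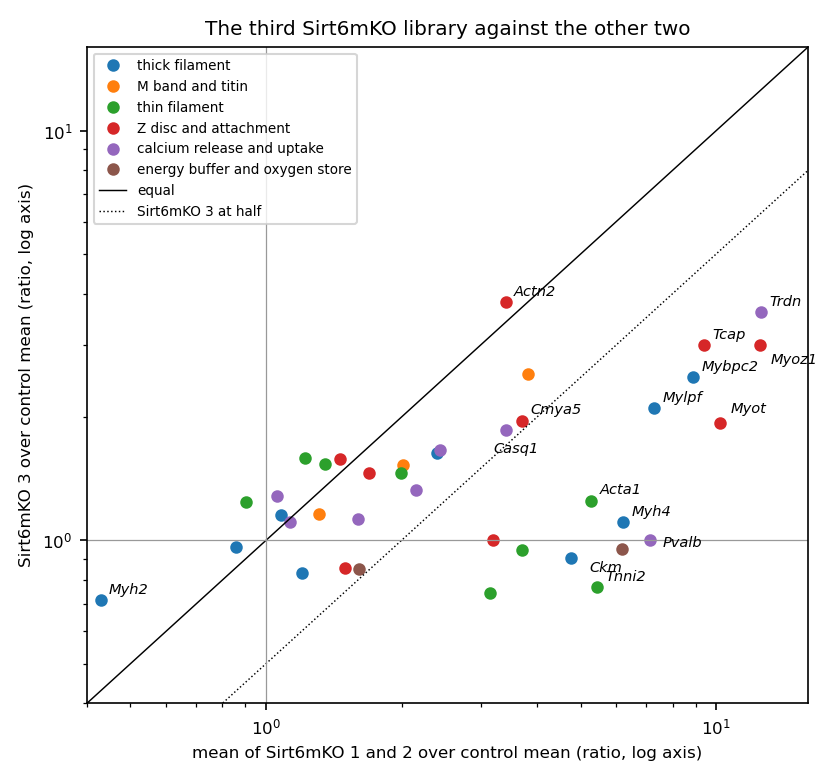
Sirt6mKO 3 over the control mean (y axis) against the mean of Sirt6mKO 1 and 2 over the control mean (x axis), both ratios on log axes, for the 39 tested contractile genes coloured by structure. *Actn2* lies above the line of equality, whereas the 15 genes with Sirt6mKO 3 at most 0.5 times each of the other libraries lie below the dotted line, many of them near a y value of 1.

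Summed over isoforms, the 15 fast genes had a signal of 2306, 2289 and 1214 in Sirt6mKO and of 835, 1148 and 948 in Ctrl. Sirt6mKO 3 was only a little above the highest control. The 8 slow genes had 776, 796 and 833 against 565, 741 and 812, with Sirt6mKO 1 and 2 inside the range of the controls. Most of this slow signal was *Mybpc1*, at 680, 714 and 737 against 501, 682 and 746. Per kb, the slow sum was 193.1, 192.0 and 202.5 against 138.1, 175.2 and 190.1, with every mutant library above every control. The margin over Ctrl 3 was narrow in Sirt6mKO 1 and 2. The fast sum per kb was 956.9, 928.9 and 430.3 against 300.1, 410.7 and 338.8. The 3 developmental genes had a signal of 36, 57 and 61 against 48, 31 and 75. Of the fast genes, 4 were called higher, and the median over the 15 was 1.43 on the log2 scale. No slow gene was called among 3 tested (median 0.50) and no developmental gene among 2 tested. With limma-trend, 1 of the slow and 0 of the developmental genes were at an unadjusted p under 0.05, and whether the classes differ was not tested. All 48 genes together took 0.404, 0.397 and 0.302% of the signal of Sirt6mKO 1, 2 and 3 and 0.211 to 0.221% of that of the controls.

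Other genes of the pathway were read from a list of 45 related contractile genes, of which 44 were in the table and 37 tested. Of these, 5 were called higher and 0 lower, with a median log2 fold change of 0.42, beside 1.57 and 1.02% of all genes. *Lmod2*, a leiomodin that lengthens thin filaments, had a signal of 336, 240 and 331 in Sirt6mKO and of 27, 54 and 34 in Ctrl (log2 fold change 2.99, limma-trend adjusted p = 5.8e-05). *Sln*, sarcolipin, the inhibitor of SERCA, had 14, 15 and 20 against 1, 4 and 0, and *Cacng1*, a subunit of the voltage sensor, had 23, 26 and 23 against 4, 9 and 7. In these 3 genes Sirt6mKO 3 was level with the other two. *Xirp2*, an actin-binding protein, had 271, 221 and 44 against 18, 22 and 16, the split of *Myh4*. *Tpm2*, β-tropomyosin, had 220, 216 and 147 against 82, 72 and 59. *Jsrp1*, a partner of the calcium channels, went the other way, with 128, 91 and 110 against 157, 208 and 174 (-0.71, limma-trend adjusted p = 0.026, under 2-fold). The count was 2 without Sirt6mKO 1 and 2 without Sirt6mKO 2.

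Fiber genes outside the contractile apparatus were read from a list of 25 (24 in the table, 14 tested), among them *Eno3*, *Pgam2*, *Pygm* and *Eef1a2*. With limma-trend 0 of them were called higher, 4 of the 14 were at an unadjusted p under 0.05 in either direction (18.1% of all genes), and limma voom called 0. Summed over the list, they came to 1038, 1131 and 891 units of signal in Sirt6mKO and 930, 891 and 941 in Ctrl. The log2 fold change was above 0 for 11 of the 14, against 50.4% of all genes, with a median of 0.44. Within the list, 5 of the 14 tested genes had Sirt6mKO 1 and 2 above all controls and Sirt6mKO 3 at most 0.5 times each. Over all genes the share with this pattern was 0.668%, and among the tested contractile genes it was 15 of 39. *Eno3*, the muscle enolase, had 103, 101 and 26 against 37, 39 and 47. *Pygm*, the muscle glycogen phosphorylase, was lower in all mutant libraries, with 250, 284 and 224 against 336, 387 and 287, but did not pass (log2 fold change -0.41, limma-trend adjusted p = 0.13). In sorted bulk samples, a change in the number of cells or fragments of a type and a change in RNA per cell cannot be told apart.

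Markers of other cells were read beside these results. The 8 tendon cell markers summed to 63, 1150 and 444 in Sirt6mKO 1, 2 and 3 and to 52 to 76 in the controls. This sum was thus high in Sirt6mKO 2 and 3, whereas many contractile genes were highest in Sirt6mKO 1 and 2. Most of it was *Fmod*, at 481 and 163 in Sirt6mKO 2 and 3, and *Thbs4*, at 508 and 191. In 5 of the 8, Sirt6mKO 2 and 3 alone were above all controls, beside 4.14% of all genes. *Scx* had 33, 27 and 24 in Sirt6mKO against 16, 23 and 23 in Ctrl, and *Mkx* had 1, 10 and 6 against 6, 15 and 13. Of 12 fibroblast markers, 8 were tested and *Col1a1*, *Col1a2* and *Pdgfra* were called higher, beside 1.57% of all genes. All 8 had a log2 fold change above 0, with a median of 1.61. The 12 summed to 9474, 10096 and 11590 against 10220, 8228 and 6566, so the groups overlapped. Most of this sum was *Col3a1*, whose log2 fold change was 0.06. Of 12 markers of mural cells, 10 were in the table and summed to 1334, 1261 and 1499 against 790 to 952. *Tagln* was called higher, and the other 9 summed to 617, 591 and 682 against 584 to 708. Of 11 cardiac genes, 8 were in the table and 1 was tested, and they summed to 22 to 35 in every library. The 6 immune markers in the table summed to 44 to 89. Most of this was *Cd68*, at 34, 64 and 70 in Sirt6mKO and 46, 35 and 61 in Ctrl. *Cd79a* was at 5 to 11, and *Lyz2*, *Cd74*, *Csf1r* and *S100a8* at 0 to 7. The 6 erythroid markers in the table summed to 549 in Ctrl 2 and to 13 to 63 in the other libraries. Without Ctrl 2 the contractile calls went from 9 to 4. They went to 2 without Sirt6mKO 1 or without Sirt6mKO 2, whose erythroid sums were 15 and 63. Whether the erythroid signal bears on the calls was not tested. The 16 MuSC markers summed to 20286, 21747 and 19951 against 21506 to 24176, with a median log2 fold change of -0.04. *Chrdl2* was called lower (-1.10, limma-trend adjusted p = 0.0021), *Pax7* passed the p under 2-fold (-0.84, limma-trend adjusted p = 0.0041), and *Cd34* did so in the other direction (0.60, limma-trend adjusted p = 0.031). Their part in the contractile signal was not tested.

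Of 18 myogenic regulators, 16 were tested with limma-trend, and 9 were at an unadjusted p under 0.05 in either direction, against 18.1% of all genes. Of the 16, 1 was called higher and 0 lower, beside 1.57 and 1.02% of all genes. A further 2 genes passed the p as lower and 1 as higher under 2-fold. With the adjusted p alone, 2.64% of all genes were higher and 1.88% lower. *Myf6*, a MyoD-family factor of mature fibers, had 34, 21 and 35 in Sirt6mKO and 9, 6 and 7 in Ctrl and was called higher (log2 fold change 1.88, limma-trend adjusted p = 0.0068), with Sirt6mKO 3 as high as Sirt6mKO 1. *Mef2a* had 399, 339 and 449 against 240, 205 and 269 and passed the p under 2-fold (0.73, limma-trend adjusted p = 0.011). *Mef2c* had 30, 28 and 5 against 2, 5 and 7, the split of *Myh4*, and was not called (1.74, limma-trend adjusted p = 0.15). *Myod1* had 79, 80 and 75 against 93, 184 and 169, below all controls (-0.86, limma-trend adjusted p = 0.045, under 2-fold). *Myog*, the factor of terminal differentiation, had 22, 58 and 139 against 137, 107 and 208 and was not called (-1.35, limma-trend adjusted p = 0.15). It was lowest in Sirt6mKO 1 and 2, the libraries in which the fast contractile genes were highest.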

How the data were processed

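RNA-seq of 6 libraries of sorted MuSCs was analysed, 3 Sirt6mKO and 3 Ctrl, grouped by their labels. The deposited values carry no unit and are called signal: the authors scaled the reads on a gene by the size factor of its library, then rounded. The submitters' processing notes name Trimmomatic 0.39, STAR 2.7.10a, featureCounts 2.0.2 and DESeq2 1.30.1. The labels name a SMARTer stranded kit with RiboGone and the methods an Ion Total RNA-Seq kit with RiboMinus, and whether strand was used in counting is not stated. Factors of 0.558 to 1.37 were recovered from the gaps between values. At 1267027 to 3209958 reads per library, a gene with no reads has a limit of 3 reads, and intervals cover counting error only.

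For genes whose signal averaged 5 or more, limma-trend (limma 3.58.1, R 4.3.3) was run on log2(signal + 1). Calls needed a p of 0.05 or less after Benjamini-Hochberg adjustment across the tested genes and a fold change of 2 or more. Fold changes on this scale understate those of low genes. The fit was tested on simulated data. Alternatives were other scalings, filters and pseudocounts, robust empirical Bayes, limma voom on recovered reads, the replicate number as a block, and leaving out each library. Exon lengths and overlaps came from the GENCODE annotation of GRCm38, which held the same coordinates for all 48 contractile genes; 20 of them share exon bases with a gene on the other strand and 0 with one on the same strand. Promoters came from RefSeq (GRCm38.p6), without the chromosome of *Myot* and *Myoz3*.

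The genes, lists and tests were chosen with earlier results of these data known, and some of the genes were also picked by the study on these libraries. Any of the 48 genes could be named. Values in every library were to be given for called genes, for genes with separate groups and at least 2-fold, and for the 5 with the highest control signal per kb. The values of other genes were chosen for display after they were seen.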

Additional observations from a re-analysis of the deposited data

How the results depend on the processing

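The 9 contractile genes called higher were the same 9 under median ratio, trimmed mean and total signal scaling and with a pseudocount of 5. The count was 6 of 48 without a filter, beside 0.747% of all genes called higher. It was 8 with a pseudocount of 0.1 (1.37% of all genes) and 8 with robust empirical Bayes (1.47%). It was 1 of 19 tested (1.03% of all genes) when genes had to average a signal of 50, which leaves out most of the called genes. It was 14 with the adjusted p alone (2.64%), and 4 with limma voom on recovered reads (1.51%), 3 of them among the 9. With 1 library left out it ran from 2 to 20. Without Sirt6mKO 1 and 2 together, an alternative added after seeing the data in which the lone mutant library is assumed to vary like the controls, limma-trend called 0 contractile genes, with 3 at an unadjusted p under 0.05, and also 0 of all 14227 genes. No contractile gene was called lower under these alternatives.

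Of the related contractile genes, 5 were called, 3 at an average signal of 50 or more and 2 to 6 with 1 library left out. Of the other fiber genes, 0 were called, 1 under the replicate block, 1 with the adjusted p alone, and 0 to 3 with 1 library left out. With the replicate number as a block, 13 contractile genes were called, the 9 and *Myh4*, *Mylk2*, *Pvalb* and *Ckm*, beside 1.88% of all genes. The deviations of same-numbered libraries correlated at 0.023, 0.066 and 0.188. Sirt6mKO 1 and 2 correlated best with Ctrl 2 (0.073 and 0.066), and Sirt6mKO 3 with Ctrl 3 (0.188). Correlations this weak, with 3 libraries per group, cannot decide whether the numbers pair the samples.

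The sign turned for 5 genes without a call. The log2 fold change of *Myh1* was -0.09 without Sirt6mKO 2 (-0.09 to 0.25 with 1 library left out). That of *Myh3* was 0.01 with a pseudocount of 0.1, 0.12 with limma voom, 0.02 without Sirt6mKO 1, 0.02 without Sirt6mKO 2 and 0.43 without Ctrl 1 (-0.32 to 0.43). *Mybpc1* came to -0.01 without Ctrl 1 (up to 0.28 without Ctrl 3). *Actc1* came to -0.05 without Sirt6mKO 2, -0.09 without Sirt6mKO 3, -0.05 without Ctrl 1 and -0.18 without Ctrl 2 (up to 0.48 without Ctrl 3). *Myoz3* came to -0.16 without Ctrl 2 (up to 0.84 without Ctrl 3). *Trdn*, with 4 reads in the controls, had a log2 fold change of 4.18 with a pseudocount of 0.1. The cause of these changes was not tested. Depth limits the 9 untested genes, none of which exceeded a signal of 7 in a library.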
